A study of Mus musculus with 32 samples.

Results

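The comparison described here sets whole brains of Dhcr7 knockout mice against wild-type brains at stage E14.5 (days of embryonic development), across all genes with enough counts to be tested. It uses 8 of the study's 32 libraries, chosen by the stage and genotype in their labels: 4 from Dhcr7-/- brains (KO) and 4 from Dhcr7+/+ brains (WT). Both groups are of strain C57BL/6J, the tissue is the whole brain, and no treatment is named. The other 24 libraries cover E12.5, E16.5 and the day of birth (PND0) with the same genotypes and group sizes, and are used below only to show how the E14.5 differences compare with the other stages. Polyadenylated RNA was sequenced as paired 150 bp reads. The sex, litter and dates of the brains are not given in the sources used here. Nor do they say that the libraries of a group came from separate animals, so the p-values measure the spread between these libraries.

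Dhcr7 encodes 7-dehydrocholesterol reductase, which turns 7-dehydrocholesterol into cholesterol, and mutations of the gene cause Smith-Lemli-Opitz syndrome in people. From mid-gestation the brain makes most of its own cholesterol. When membranes of the endoplasmic reticulum run short of sterol, the transcription factor SREBP-2 and its partner SCAP are released from INSIG. SREBP-2 then switches on the genes of cholesterol synthesis. Oxysterols and desmosterol activate the nuclear receptor LXR, which switches on the sterol exporters Abca1 and Abcg1 and the fatty acid regulator Srebf1. Sterols also enter Hedgehog signalling, since the ligand carries cholesterol and the signal transducer Smoothened binds it.

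The 4 WT libraries held 21.9 to 28.32 M counts and the 4 KO libraries 17.27 to 25.19 M, so that a count of 0 allows up to 3 counts, or 0.106 to 0.174 CPM (counts scaled to the library total, with TMM scaling factors). These limits cover counting error only, since no molecular identifiers were used. All 9 markers of radial glia and neurons that were checked (Sox2, Pax6, Nes, Vim, Fabp7, Tubb3, Dcx, Stmn2, Map2) were present in all 8 libraries, at 88.1 to 1680 CPM. The ribosomal RNA gene CT010467.1 took 2.68% and 2.55% of the counts in KO 3 and KO 4 and 0.869 to 1.17% in the other 6 libraries. The Y-linked gene Ddx3y was above 1 CPM in 3 of 4 WT libraries (not WT 2) and 3 of 4 KO libraries (not KO 1), so both genotypes held the same number of each sex by this measure. On the first 4 principal components the groups overlapped. The spread between replicates was small: the common biological coefficient of variation was 6.254% at E14.5, against 19.91% at E12.5, 9.991% at E16.5 and 16.59% at PND0.

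The targeted gene itself gave the lowest fold change of the comparison. Dhcr7 (ENSMUSG00000058454.15, chr7:143823145-143848410 in build GRCm38, plus strand) stood at 69.5, 70.5, 68.7 and 69.8 CPM in WT 1 to 4 and at 13.1, 12.8, 12.03 and 14.6 CPM in KO 1 to 4. All 4 KO libraries lay far below all WT libraries, at 18.9% of the WT mean (log2 fold change -2.40, SE 0.0624, adjusted p = 6.91e-29 by edgeR's quasi-likelihood test with Benjamini-Hochberg adjustment over all genes). Reads were thus still counted to Dhcr7 in KO, and counts per gene do not show which exons they cover. The actin gene Acte1 (chr7:143866838-143900046, plus strand) lies downstream of Dhcr7 on the same strand. Dusp8 lies on the other side of Dhcr7, and the stretch from Dusp8 to Acte1 spans 1.82 Mb. Acte1 counts were 0 in every WT library and 78, 101, 67 and 103 in KO 1 to 4. With 3 counts as the limit over the WT group, this is at least 134-fold higher in KO. Acte1 was also past the threshold at E12.5, E16.5 and PND0. Its fitted log2 fold changes there were 8.776, 9.225 and 9.174 (edgeR adjusted p = 0.0122, 3.44e-05 and 8.38e-05). The size of such a fitted value depends on the method. At E14.5, with WT counts of 0, it was 9.563 by edgeR and 7.591 by limma voom. The cause of the Acte1 difference was not tested. Within 10 Mb of Dhcr7, 3 of 127 tested genes were past the threshold, or 2.36%, beside 0.527% of all genes tested. These were Dhcr7, the targeted gene itself, and 2 others, Acte1 and Dusp8.

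Over all genes, 94 of 17837 passed the threshold of an adjusted p under 0.05, a share of 0.527%. Of these, 39 were higher in KO (0.219% of genes tested) and 55 were lower (0.308%), and all 94 are annotated as protein-coding. The median log2 fold change of all genes tested was 0.0015. In 4.71% of all genes the 4 libraries of one genotype lay wholly above the 4 of the other, 2.21% with KO higher and 2.49% with KO lower. Genes past the threshold were chosen by a test on these same values. Non-overlap among them, given below, therefore only describes their values and is no further support. An unadjusted p under 0.05 was found for 8.73% of genes, 4.28% with KO higher and 4.45% with KO lower. The called genes fell into 4 classes by the sterol and lipid gene lists. Members of those lists made up 18 of the higher genes, with a median log2 fold change of 0.36, and 5 of the lower genes, with a median of -0.52. Beside Dhcr7 and Acte1, the other genes were 20 higher, with a median of 0.26, and 49 lower, with a median of -0.20. The count depended on single libraries: it was 155 without WT 2, 52 without WT 4 and 57 without KO 1, and between 65 and 89 without any one of the other 5. Of the 94 genes themselves, 49 were kept without WT 4, 54 without KO 1 and 84 without WT 2. Without KO 3 and KO 4, the libraries with most ribosomal RNA, 72 genes passed, 57 of them among the 94.

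**Figure D1:**
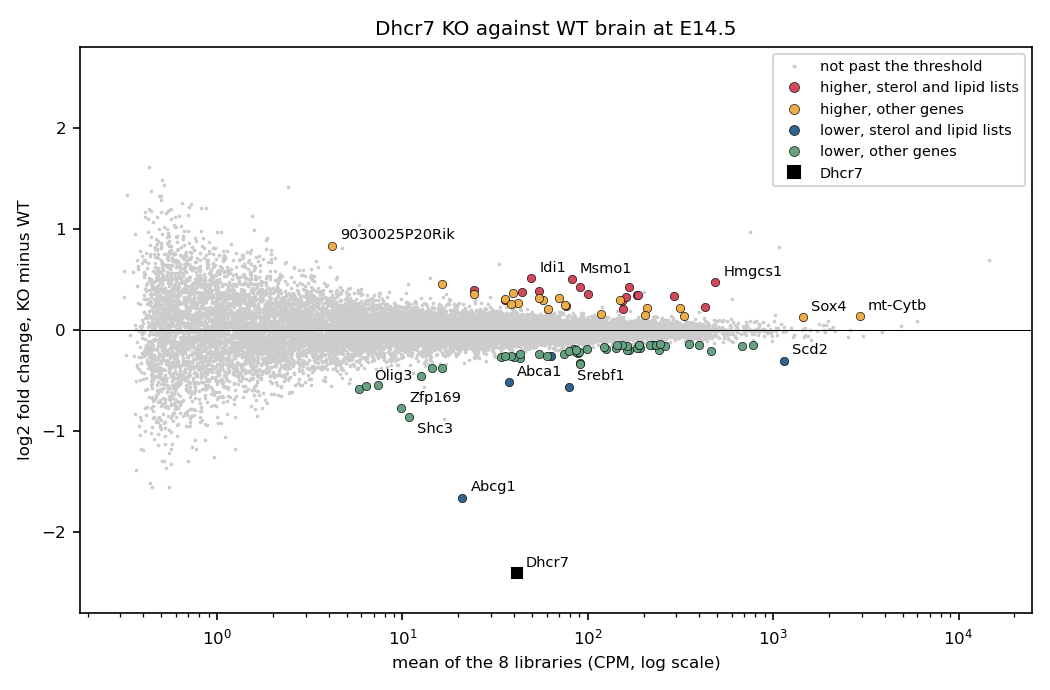
Log2 fold change of KO against WT at E14.5 for each gene tested (vertical axis) against its mean over the 8 libraries in CPM (horizontal axis, log scale). Coloured points are genes past the threshold, by class. Abcg1 (-1.66) and Dhcr7 (-2.40) are the lowest of the coloured points, the higher sterol genes form a band above zero, and Acte1 lies above the axis range.

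Genes of cholesterol synthesis rose together. Of 20 enzymes of the pathway other than Dhcr7, all tested, 14 rose and none fell, beside 0.219% higher and 0.308% lower over all genes tested. All 20 had a fold change above zero, and the median log2 fold change was 0.34. Their summed level was 1910 to 1980 CPM in the WT libraries and 2450 to 2600 CPM in the KO libraries. In the mevalonate part of the pathway 5 of 8 enzymes rose. Hmgcs1, which makes HMG-CoA, stood at 405, 413, 401 and 402 CPM in WT and 550.4, 606, 543 and 555 CPM in KO (log2 fold change 0.48, SE 0.0318, adjusted p = 2.72e-14 by the same edgeR test). Every KO value of Hmgcs1 was far above the WT values, and the WT values were close together. Acat2, the thiolase that makes acetoacetyl-CoA, stood at 145.4, 147, 141 and 135 CPM in WT and 178, 195, 171 and 168 CPM in KO (log2 fold change 0.33, SE 0.0402, edgeR adjusted p = 9.57e-07). Idi1, the isomerase that makes dimethylallyl diphosphate, stood at 38.0, 43.8, 37.9 and 43.7 CPM in WT and 57.5, 63.0, 56.6 and 56.4 CPM in KO, the highest fold change of all sterol genes (log2 fold change 0.52, SE 0.0564). Mvd, the decarboxylase that makes isopentenyl diphosphate, rose by 0.30 (edgeR adjusted p = 0.00629), a call lost without WT 1.

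Past the branch to sterols, 9 of 12 enzymes rose. Fdft1, which makes squalene, stood at 136, 143, 144.6 and 143 CPM in WT and 192, 199, 184 and 187 CPM in KO. This is a log2 fold change of 0.43 (SE 0.0357, edgeR adjusted p = 2.82e-11), with no overlap. Sqle, the epoxidase that follows, stood at 155, 168, 164 and 172 CPM in WT and 208, 219, 201 and 208 CPM in KO (log2 fold change 0.34). Msmo1, which oxidises methyl groups of the sterol ring, showed the highest fold change of this section of the pathway, from 65.8, 70.0, 68.3 and 65.9 CPM in WT to 95.3, 95.1, 93.8 and 99.8 CPM in KO (log2 fold change 0.51, SE 0.0440, edgeR adjusted p = 7.22e-11). Its partner in that step, Nsdhl, rose by 0.38, and Hsd17b7 by 0.40. The cyclase Lss rose by 0.36 and the demethylase Cyp51 by 0.35. Sc5d, which makes the substrate of Dhcr7, rose by 0.24. All 14 enzymes had WT and KO libraries that did not overlap, beside 4.71% of all genes tested. The 14 were chosen by a test on the same values, so this only describes them. All 14 stayed under 1.5-fold. The 14 calls were also 14 without KO 3 and KO 4, but 0 in a fit of all 32 libraries, whose common coefficient of variation was 14.8%.

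The 6 enzymes that did not pass had smaller or less regular differences. Fdps, which makes farnesyl diphosphate, had a log2 fold change of 0.37 with an SE of 0.128 (edgeR adjusted p = 0.312), from 6.54, 6.30, 6.39 and 7.14 CPM in WT to 10.4, 8.84, 6.98 and 7.71 CPM in KO. The KO libraries of Fdps were spread widely and overlapped WT. The kinases Mvk and Pmvk had values of 0.19 (edgeR adjusted p = 0.264) and 0.083. Tm7sf2 and Lbr, which both encode a sterol C14 reductase, had values of 0.16 and 0.058, and the isomerase Ebp had 0.14.

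**Figure D2:**
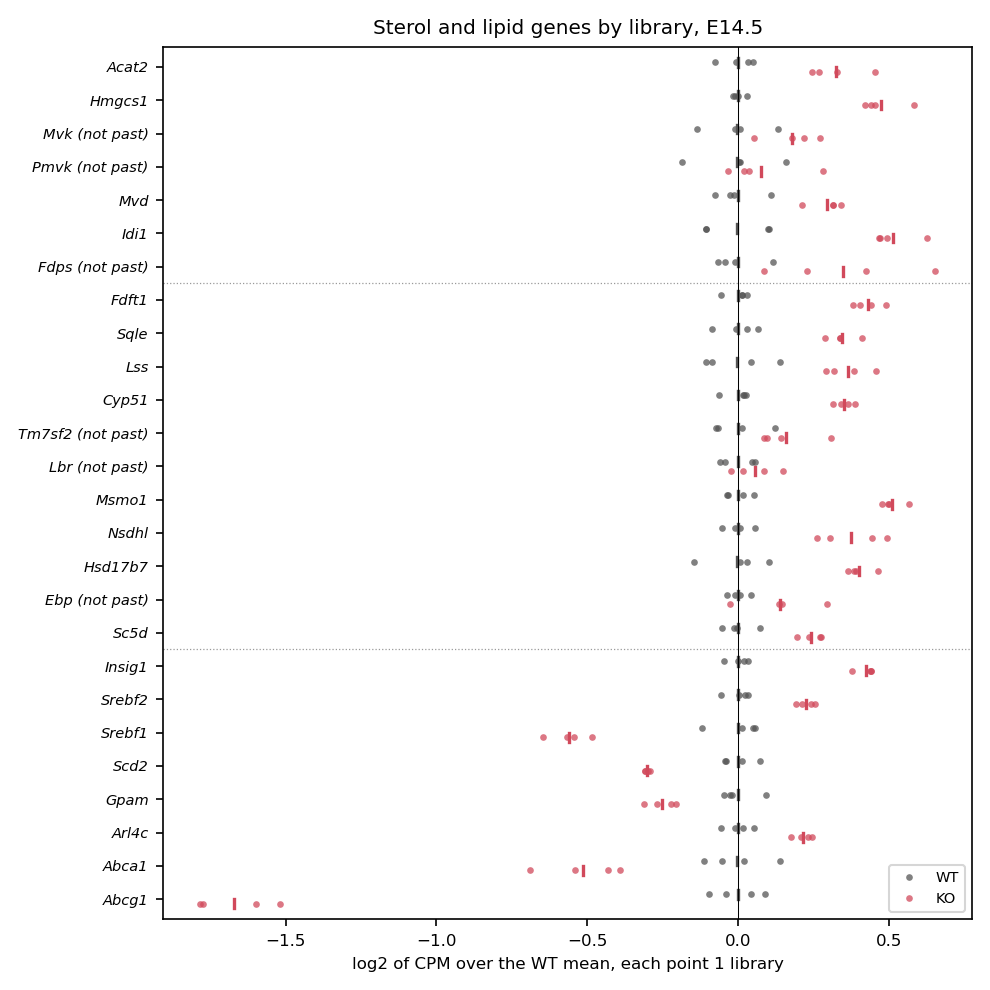
Sterol and lipid genes by library at E14.5. Each point is 1 library, plotted as the log2 of its CPM over the WT mean (grey WT, red KO), and the ticks mark group means of these values; the rows run from mevalonate enzymes through sterol enzymes to regulators, fatty acid and efflux genes. The KO points of the enzymes past the threshold lie to the right of every WT point, and those of Srebf1, Scd2, Gpam, Abca1 and Abcg1 to the left.

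Promoter sequence is shown for the enzymes because these genes moved together and SREBP binds a sterol response element beside a CCAAT box, bound by NF-Y. The windows are the 250 bases before the start in RefSeq's promoters (GRCm38.p6), which covered 10 of the 14 enzymes that rose. CCAAT, on either strand, was in 9 of these 10 (90.0%), in 9 of 17 other genes that rose (52.9%), in 17 of 41 that fell (41.5%) and in 37.5% of 27025 promoters. The element TCACNCCAC, on either strand, was in 1 of the 10, Hmgcs1 (all promoters 1.22%). A looser form, TCACNNCAC, which includes the stricter one and was chosen after looking at the sequences, was in 3 of the 10, Hmgcs1, Hsd17b7 and Msmo1 (all promoters 3.63%), and also in Dhcr7 and Rc3h2. The starts are RefSeq's and can differ from the gene starts of GENCODE M21. The RefSeq start of Dhcr7 lies 254 bases inside the GENCODE gene and that of Msmo1 214 bases inside, so that their TCACNNCAC matches, 130 and 92 bases before the RefSeq start, fall within the GENCODE gene. For Hmgcs1, Hsd17b7 and Rc3h2 the match lies before both starts. Rc3h2, whose match lies 158 bases before its start, is not on the sterol and lipid lists and is not printed. For the enzymes Hmgcs1 and Hsd17b7 the stretch before the GENCODE gene is printed 5′ to 3′ on the gene's strand. CCAAT read on the other strand (ATTGG) and TCACNNCAC are in capitals. A match is a description of the letters only.
Hmgcs1 (chr13:119690102-119690322, plus strand): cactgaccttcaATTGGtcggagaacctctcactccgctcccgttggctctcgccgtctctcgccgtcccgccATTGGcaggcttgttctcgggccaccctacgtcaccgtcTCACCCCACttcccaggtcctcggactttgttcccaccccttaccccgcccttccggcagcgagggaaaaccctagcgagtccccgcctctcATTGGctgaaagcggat
Hsd17b7 (chr1:169969262-169969382, minus strand): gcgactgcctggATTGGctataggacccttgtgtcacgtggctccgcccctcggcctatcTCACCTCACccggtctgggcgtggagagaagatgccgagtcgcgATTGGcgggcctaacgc
The TCACNNCAC match lies 137 bases before the RefSeq start in Hmgcs1 and 117 bases in Hsd17b7. The printed stretches hold 3 matches to CCAAT in Hmgcs1 and 2 in Hsd17b7.

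Genes that regulate the pathway moved in opposite directions. Of 12 genes of the SREBP machinery, Insig1 and Srebf2 rose and Srebf1 fell, beside 0.219% higher and 0.308% lower over all genes tested. Insig1, which holds SREBP in the endoplasmic reticulum and is itself an SREBP target, stood at 75.4, 77.9, 79.7 and 79.0 CPM in WT and 106, 101, 106 and 106 CPM in KO (log2 fold change 0.42, SE 0.0420, edgeR adjusted p = 2.68e-09). Srebf2, which encodes SREBP-2, stood at 400.5, 379, 403 and 394 CPM in WT and 465, 470.5, 457 and 449.9 CPM in KO (log2 fold change 0.22, SE 0.0301). Srebf1, which encodes SREBP-1 and is an LXR target, stood at 97.9, 86.6, 97.4 and 95.0 CPM in WT and 67.3, 60.2, 63.6 and 64.7 CPM in KO (log2 fold change -0.56, SE 0.0479, edgeR adjusted p = 5.94e-11). The 2 Srebf genes therefore moved apart, each without overlap between genotypes, beside 4.71% of all genes tested. Among 21 genes of sterol uptake and transport, Stard4, a cytosolic sterol carrier, was at 0.27 (edgeR adjusted p = 0.0604).

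The sterol exporters fell. Abcg1 went from 33.9, 29.9, 31.0 and 32.9 CPM in WT to 10.5, 11.1, 9.27 and 9.33 CPM in KO, which is 31.6% of the WT mean (log2 fold change -1.66, SE 0.0828, edgeR adjusted p = 1.96e-18). Abca1 went from 40.6, 48.4, 42.4 and 44.5 CPM in WT to 30.2, 27.2, 33.5 and 32.6 CPM in KO (log2 fold change -0.52, SE 0.0659, edgeR adjusted p = 1.82e-06). Abcg1 and Abca1 were the 2 of 15 tested LXR targets and efflux genes that fell, beside 0.308% of all genes tested. Neither overlapped between genotypes, where 2.49% of all genes tested had KO wholly below WT. Arl4c, a small GTPase also known as an LXR target, went the other way and rose by 0.21 (SE 0.0357, edgeR adjusted p = 0.000301). Of the remaining members, Apoe, the main sterol-carrying apolipoprotein of the brain, had a log2 fold change of -0.15 (edgeR adjusted p = 0.264). The median of the list was -0.097, with 11 of 15 below zero. Rnf145, a ubiquitin ligase of the endoplasmic reticulum that is described as an LXR target but was not on the list, fell by 0.20 on the log2 scale (edgeR adjusted p = 0.00113).

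Among 16 genes of fatty acid synthesis Scd2 and Gpam fell, beside 0.308% of all genes tested. Scd2, the main desaturase of the embryonic brain, stood at 1221, 1224, 1270 and 1324 CPM in WT and 1025, 1017, 1017 and 1029 CPM in KO (log2 fold change -0.30, SE 0.0282, edgeR adjusted p = 5.45e-10). Its KO libraries were nearly equal to each other and all below WT. Gpam, which starts triglyceride synthesis, had a log2 fold change of -0.25 (SE 0.0479, edgeR adjusted p = 0.00207). Of the 16, 9 were above zero, and Elovl6 and Elovl5, which lengthen fatty acids, had values of 0.17 and 0.17 (edgeR adjusted p = 0.0795 and 0.113). The enzymes that make oxysterols (5 tested) and the non-sterol isoprenoids (15 tested) had no member past the threshold. Their members with the smallest p were Cyp46a1, the cholesterol 24-hydroxylase, at -0.11, and Ggps1, which makes geranylgeranyl diphosphate, at 0.11 (edgeR adjusted p = 0.786 and 0.552).

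The other called genes are described by known role, a grouping made after their values were seen and not tested. Aacs, Idh1 and Pcyt2, metabolic enzymes outside the lists, rose. Aacs, which activates acetoacetate for lipid synthesis in the cytosol, stood at 61.1, 65.1, 58.8 and 64.4 CPM in WT and 80.2, 83.1, 74.0 and 74.1 CPM in KO (log2 fold change 0.32, SE 0.0490, edgeR adjusted p = 5.66e-05). Idh1, the cytosolic isocitrate dehydrogenase that supplies NADPH, stood at 286, 294, 289.8 and 298 CPM in WT and 342, 345, 340.2 and 330 CPM in KO (log2 fold change 0.22, edgeR adjusted p = 9.74e-06). Pcyt2, of phosphatidylethanolamine synthesis, rose by 0.25 (edgeR adjusted p = 0.00172). All 3 genes also kept their call in each of the 8 fits that left out 1 library.

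Stmn4, Pclo, Sox4 and Dpysl2, genes with known roles in neurons, rose. Other called genes that act in neurons fell and are described below. Among them are Shc3, Lhx6, Unc79 and Slc4a8, with log2 fold changes of -0.85, -0.26, -0.23 and -0.22. Stmn4, a neuronal stathmin that acts on microtubules, stood at 133, 138, 129 and 139 CPM in WT and 166, 177, 157 and 159 CPM in KO (log2 fold change 0.29, SE 0.0388, edgeR adjusted p = 2.75e-06). Pclo, a scaffold of the presynaptic active zone, rose by 0.30 (edgeR adjusted p = 0.00122), and its WT and KO libraries came close without overlap. Sox4, a transcription factor of newborn neurons, rose by 0.13, and Dpysl2, which guides axon growth, by 0.14. The last 2 are small shifts in abundant genes, and the call was lost for Sox4 without WT 4 or KO 1 and for Dpysl2 without WT 1, WT 3, WT 4, KO 3 or KO 4. Without KO 3 and KO 4 together, the calls of Pclo and Dpysl2 were also lost. Fdft1, Stmn4 and Dpysl2 lie within 3.72 Mb of each other on chromosome 14, a stretch with 32 tested genes. The list of 23 genes of neuronal maturation had none past the threshold (17 above zero, median 0.028), with Nlgn3, a synaptic adhesion protein, at 0.14 (edgeR adjusted p = 0.288).

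Dusp8, Sh2d3c, Ets1 and Aplnr, which act in signalling or transcription, rose. Dusp8, a phosphatase of MAP kinases, stood at 200, 198, 181.7 and 192 CPM in WT and 231, 228, 224 and 217 CPM in KO (log2 fold change 0.22, edgeR adjusted p = 0.000101). Sh2d3c, an adaptor in integrin and receptor signalling, rose by 0.37 (edgeR adjusted p = 0.000168). Ets1, a transcription factor, rose by 0.26, and Aplnr, the apelin receptor, by 0.26. Both Ets1 and Aplnr are known in blood vessels. Heg1, a receptor of endothelial junctions described below, went the other way, with a log2 fold change of -0.32. It kept its call in all 8 fits that left out 1 library. The 8 endothelial markers that were checked were all above zero with none past the threshold (median 0.088, summed level 295 to 320 CPM in WT and 306 to 336 CPM in KO), and their part in the result was not tested. The call of Aplnr was lost without WT 1, WT 4 or KO 1, and those of Ets1 and Aplnr also without KO 3 and KO 4 together.

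The remaining genes that rose have varied roles. The gene 9030025P20Rik, of low level, stood at 3.60, 3.34, 2.24 and 2.704 CPM in WT and 6.10, 4.50, 4.81 and 5.89 CPM in KO (log2 fold change 0.83, SE 0.173, edgeR adjusted p = 0.00706), a call lost without WT 3, WT 4 or KO 1. Ptgds, which makes prostaglandin D2, had overlapping groups, from 15.4, 16.2, 12.6 and 11.1 CPM in WT to 18.6, 20.5, 20.9 and 16.0 CPM in KO, and its call was lost without WT 3, WT 4, KO 1, KO 2 or KO 3. Of 12 tested genes of the mitochondrial genome only mt-Cytb passed (0.14, edgeR adjusted p = 0.00429), beside 0.527% of all genes tested. Of the 12, 10 were above zero. The log2 fold changes of the others were 0.36 for Rps6kl1, 0.31 for Fbxo7, an F-box protein, 0.30 for Gpr137c, 0.21 for Vgll4, a cofactor of TEAD factors, 0.16 for Rc3h2, an RNA-binding protein, and 0.15 for Sh3pxd2b. The groups of Vgll4 overlapped. The call of mt-Cytb was lost without WT 1 or WT 4, of Rps6kl1 without WT 1, WT 4, KO 1 or KO 4, of Fbxo7 without WT 1 or KO 1 and of Gpr137c without WT 4. The call was lost for Vgll4 without WT 1, WT 2, WT 4, KO 1, KO 3 or KO 4, for Rc3h2 without WT 1, WT 3, WT 4, KO 1, KO 3 or KO 4, and for Sh3pxd2b without WT 1, WT 2, WT 4, KO 1, KO 3 or KO 4 and with limma voom. Without KO 3 and KO 4 together, 9030025P20Rik, Gpr137c, Vgll4, Rc3h2 and Sh3pxd2b also lost their call.

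Hedgehog genes were among those that fell. Gli3, the main repressor among the Gli factors, stood at 79.8, 83.6, 92.8 and 84.2 CPM in WT and 75.1, 69.9, 75.7 and 74.8 CPM in KO (log2 fold change -0.20, SE 0.0476, edgeR adjusted p = 0.0257). Ptch1, the receptor and a target of the pathway, stood at 92.7, 93.1, 88.7 and 95.0 CPM in WT and 75.9, 77.7, 87.5 and 83.0 CPM in KO (log2 fold change -0.19, edgeR adjusted p = 0.0349). Cdon, a co-receptor, stood at 157, 156, 168 and 160.1 CPM in WT and 144.6, 147, 144.8 and 143 CPM in KO (log2 fold change -0.15, edgeR adjusted p = 0.0394). None of the 3 overlapped between genotypes, but each difference was small. Gli3 was not past the threshold without WT 3, WT 4, KO 1, KO 2 or KO 4, Ptch1 without WT 1, WT 4, KO 1, KO 2 or KO 4 and Cdon without WT 1, WT 3, WT 4, KO 1, KO 2, KO 3 or KO 4. Cdon was also not past it without KO 3 and KO 4 together. Of the 15 tested Hedgehog genes 13 were below zero and 3 fell, with a median log2 fold change of -0.092. Over all genes tested 0.308% fell. Gas1, another co-receptor, was at -0.17 (edgeR adjusted p = 0.168). C2cd3, which primary cilia need, fell by 0.21 on the log2 scale and lost its call without WT 1, WT 4, KO 1 or KO 2.

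Lhx6, Olig1, Gata2, Pax5 and Olig3, transcription factors of brain regions and cell types, fell. Lhx6, which marks interneurons from the medial ganglionic eminence, stood at 66.5, 68.2, 63.9 and 64.3 CPM in WT and 59.6, 54.2, 53.4 and 53.0 CPM in KO (log2 fold change -0.26, SE 0.0490, edgeR adjusted p = 0.00263), and kept its call whichever single library was left out. The other 4 did not, and all 5 calls were lost without KO 3 and KO 4 together. Olig1, of the oligodendrocyte lineage, stood at 14.8, 15.2, 12 and 16.0 CPM in WT and 10.9, 10.9, 10.3 and 10.4 CPM in KO (edgeR adjusted p = 0.0155). The lowest WT library of Olig1 was close to the highest KO library, without overlap. Gata2, of midbrain GABA and serotonin neurons, stood at 17.2, 17.3, 19.6 and 19.6 CPM in WT and 13.4, 15.2, 14.6 and 13.6 CPM in KO (edgeR adjusted p = 0.0257). Pax5, of the midbrain-hindbrain boundary, had a log2 fold change of -0.27 and Olig3, of dorsal hindbrain and thalamic progenitors, one of -0.55 (edgeR adjusted p = 0.0184 and 0.0486). The call was lost for Olig1 without WT 1, WT 4, KO 1 or KO 4, for Gata2 without WT 3, WT 4, KO 1 or KO 4, for Pax5 without WT 3, WT 4, KO 1, KO 2 or KO 3, and for Olig3 without WT 1, WT 3, WT 4, KO 1, KO 2, KO 3 or KO 4. In the lists these genes belong to, 1 of 16 genes of GABA interneurons, 1 of 15 of midbrain and cerebellum, 1 of 15 of dopamine and serotonin neurons and 1 of 12 of the oligodendrocyte lineage fell. Over all genes tested 0.308% fell, and the lists were chosen with earlier results of these data known. All 15 midbrain and cerebellum genes were below zero, with a median log2 fold change of -0.10. In whole brain, fewer cells of a type and less RNA per cell cannot be told apart.

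The largest fold changes among the other lower genes belonged to 2 neighbours on chromosome 13. Shc3, an adaptor of neurotrophin receptors, stood at 16.1, 13.8, 13.7 and 12.04 CPM in WT and 7.67, 6.83, 7.57 and 8.75 CPM in KO (log2 fold change -0.85, SE 0.111, edgeR adjusted p = 2.38e-06). Zfp169, a zinc finger gene, stood at 12.4, 10.2 and 12.1 CPM in WT 2 to 4, with WT 1 above these, and at 6.42, 7.58, 8.33 and 6.67 CPM in KO (log2 fold change -0.77, SE 0.119, edgeR adjusted p = 7.13e-05). Both kept their call whichever library was left out. They lie within 3.08 Mb, a span with 25 tested genes of which no other was past the threshold. Their fold changes at E12.5, E16.5 and PND0 were 0.047, 0.049 and -0.90 for Shc3 and -0.079, 0.022 and -0.85 for Zfp169, so both had negative values at E14.5 and PND0 and values near zero at E12.5 and E16.5. At PND0 they did not pass the threshold (edgeR adjusted p = 0.142 and 0.0614). Shc3 was the only one of 13 tested neurotrophin genes past the threshold, beside 0.527% of all genes tested.

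Most of the 49 other genes that fell did so by little. Of them, 36 changed by under 1.2-fold, and 14 of the 50 that include Dhcr7 kept their call in all 8 fits that left out 1 library. Several act in the cytoskeleton or at cell junctions. Myh10, the nonmuscle myosin IIB heavy chain, stood at 491, 494, 493 and 493 CPM in WT and 429, 437, 429 and 414 CPM in KO (log2 fold change -0.21, SE 0.0290, edgeR adjusted p = 9.74e-06). Heg1, a receptor of endothelial junctions, stood at 98.6, 98.8, 104 and 103 CPM in WT and 80.0, 81.9, 82.7 and 79.9 CPM in KO (log2 fold change -0.32, edgeR adjusted p = 2.75e-06). The spectrin Sptan1 fell by 0.14, the microtubule plus-end protein Clasp1 by 0.13 and the GTPase-activating protein Arhgap21 by 0.14 on the log2 scale. Others act in chromatin and transcription: Ep400, of a chromatin remodelling complex, fell by 0.16, the Mediator subunit Med1 by 0.22, Zfp462 by 0.14 and Dido1 by 0.18. Hipk2, a nuclear kinase of transcription factors, stood at 96.3, 106, 97.4 and 107 CPM in WT and 73.9, 74.8, 91.7 and 83.3 CPM in KO (log2 fold change -0.33, edgeR adjusted p = 0.00154). Snrnp200 and Snrpb, of the spliceosome, fell by 0.19 and 0.18 (edgeR adjusted p = 0.000324 and 0.0129). Unc79, of the NALCN sodium leak channel complex, and Slc4a8, a bicarbonate transporter of neurons, fell by 0.23 and 0.22. Ckb, the brain creatine kinase, and Pgam1, of glycolysis, both fell by 0.16, and Metrn, a secreted factor of neural progenitors, by 0.27. Of the genes named in these sentences, Myh10, Heg1, Ep400, Hipk2, Snrnp200, Unc79, Slc4a8 and Ckb kept their call whichever single library was left out, and the others did not. Without KO 3 and KO 4 together, the calls of Ep400, Sptan1, Clasp1, Arhgap21, Snrpb and Pgam1 were lost.

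The rest of the genes that fell were of mixed or little known role. Lurap1 and Mapkapk5, both of low level, had log2 fold changes of -0.58 and -0.55. Prdm11 was at -0.38, Smcr8, of the C9orf72 complex, at -0.27, and Epg5, of autophagy, at -0.25. Ston2, an endocytic adaptor, was at -0.25, Ildr2 at -0.24 and Mpdz, a scaffold of many PDZ domains, at -0.19. The zinc finger genes Zfp41, Zfp518b and Zeb1 were at -0.20, -0.17 and -0.14, and Gtf3c4, of RNA polymerase III transcription, at -0.18. Rbm3, a cold-inducible RNA-binding protein, was at -0.17, the ubiquitin ligase Rnf130 at -0.14, Glg1, of the Golgi, at -0.15 and 2610507B11Rik at -0.15. Tro was at -0.18 with overlapping groups. Among these genes only Zfp41 kept its call in all 8 fits that left out 1 library, and Zeb1 in none of them. Without KO 3 and KO 4 together, only Zfp41, Ildr2 and Gtf3c4 of these genes kept their call.

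**Figure D3:**
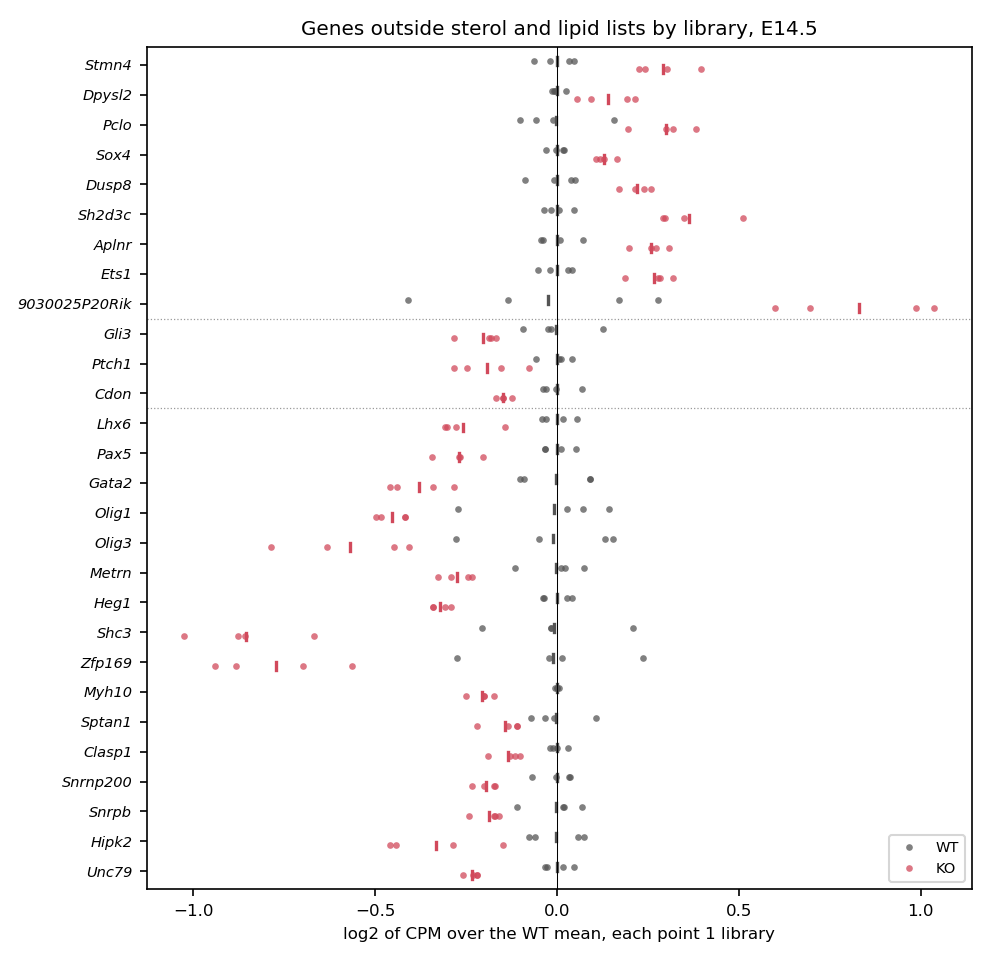
A selection of called genes outside the sterol and lipid lists by library at E14.5. Each point is 1 library, plotted as the log2 of its CPM over the WT mean (grey WT, red KO), with ticks at the group means of these values. The KO points of Shc3 and Zfp169 lie farthest to the left and those of 9030025P20Rik farthest to the right, while Gli3, Ptch1 and Cdon show small shifts.

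Most cell cycle, Notch and radial glia genes had values below zero without passing the threshold. Of 27 cell cycle genes 24 were below zero and none was past the threshold, with a median of -0.094; 10 had an unadjusted p under 0.05 with a lower level in KO, beside 4.45% of all genes. Top2a, the topoisomerase of dividing cells, was the member with the smallest p, at 262, 269, 284 and 271 CPM in WT and 242, 232, 261 and 257 CPM in KO (log2 fold change -0.13, edgeR adjusted p = 0.0839). Cdca3, a cell cycle gene outside the list, was past the threshold at -0.23 with overlapping groups, a call lost without WT 1, WT 3, WT 4, KO 1, KO 2 or KO 3. Of 19 Notch and proneural genes 16 were below zero, with Dll3, a Notch ligand, at -0.29 (edgeR adjusted p = 0.0795). Of 14 radial glia genes 12 were below zero, with Sox1, of neural progenitors, at -0.12 (edgeR adjusted p = 0.334). The share of genes below zero over all genes tested is close to even, at 8803 of 17837. Of 12 genes of intermediate progenitors and newborn neurons 7 were above zero, with a median log2 fold change of 0.0385. How far these lists moved with cell composition was not tested.

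Among the other lists with no member past the threshold, the gene with the smallest p stood as follows. Plxnd1, a semaphorin receptor and 1 of 42 axon guidance genes, had a log2 fold change of 0.15 (edgeR adjusted p = 0.0554). Lef1, of Wnt feedback, was at 0.16, Hsp90b1, of the unfolded protein response, at 0.092, and Acsl4, of ferroptosis, at 0.24 (edgeR adjusted p = 0.325, 0.33 and 0.202). Foxp2, of deep cortical layers, was at 0.13, and Tubb3, the neuronal tubulin, at -0.093. The channel gene Kcnq3 was at 0.18 and the glutamate receptor Grm4 at 0.16. Ldha, of glycolysis, was at -0.14, the immediate early gene Ier2 at -0.21, the glucocorticoid target Per1 at 0.11, and Kcnq1ot1, of the imprinted domain near Dhcr7, at 0.17. Aqp4, of astrocytes, and Slc6a5, of glycinergic neurons, had low counts and wide errors (SE 0.305 and 0.223). In all, the functional lists outside sterols and lipids held 432 tested genes, of which 1 rose and 8 fell. Over all genes tested 0.219% rose and 0.308% fell.

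Markers of tissues beside neural cells gave no call. Of 75 tested markers in the composition lists 0 were past the threshold by edgeR's quasi-likelihood test, and 9 had an unadjusted p under 0.05. Blood markers summed to 1130 to 1480 CPM in WT and 1080 to 1450 CPM in KO, and Slc4a1, the anion exchanger of red cells, was at -0.52 (edgeR adjusted p = 0.0776). Markers of microglia summed to 84.8 to 89.5 CPM in WT and 79.8 to 89.3 CPM in KO, with 8 of 9 below zero. Choroid plexus markers summed to 358 to 532 CPM in WT and 440 to 493 CPM in KO, and those of meninges to 657 to 762 CPM in WT and 648 to 951 CPM in KO. The 8 Hox genes of spinal cord and caudal hindbrain held 20 counts over the WT group and 18 over the KO group, too few to test.

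Long transcripts were common among the genes that fell, a description with no test. Of the 49 other genes that fell, 36 (73.5%) have a longest annotated transcript over 4000 nt, against 33.9% of all genes tested, and their median length was 7443 nt against 3123 nt. Herc1 and Herc2, which encode giant ubiquitin ligases, have transcripts of 15153 and 15261 nt and fell by 0.15 and 0.14 on the log2 scale. Each kept its call in only 2 of the 8 fits that left out 1 library, and lost it without KO 3 and KO 4 together. Across all genes the fold change hardly followed length (Spearman correlation 0.035 over 17653 genes, which are not independent replicates). Single libraries did lean with length, from a Spearman correlation of -0.12 in WT 3 to 0.13 in WT 2. With a length trend removed from each library, all 94 calls were kept and 114 genes passed. The median size of the log2 fold change was 0.0541 for genes over 4000 nt and 0.0816 for those up to 4000 nt. The part of length in the calls was not tested.

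**Figure D4:**
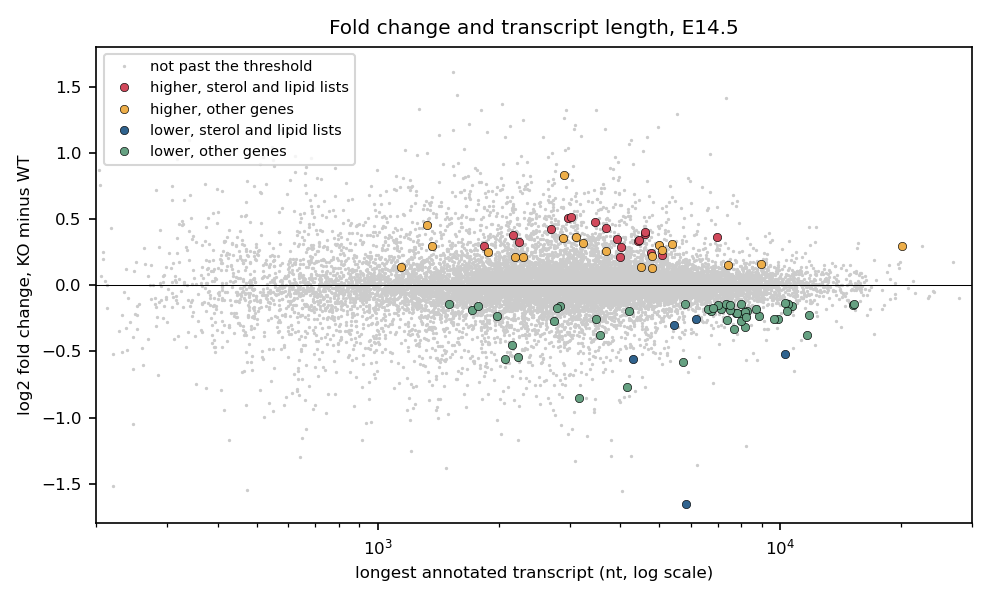
Log2 fold change of KO against WT at E14.5 (vertical axis) against the length of the longest annotated transcript in nt (horizontal axis, log scale). Coloured points are genes past the threshold by class, without Dhcr7 and Acte1, and grey points the rest within the axis range. Most genes of the class lower, other genes, lie to the right of 4000 nt.

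The other stages, which share no library with E14.5, split these genes by class. All 18 sterol and lipid genes that rose at E14.5 were above zero at each of E12.5, E16.5 and PND0, and all 5 that fell were below zero at each. Fewer were past the threshold in that direction at those stages: 0, 4 and 4 of the 18, and 1, 2 and 3 of the 5. Over all genes tested 50.9%, 50.1% and 51% kept the direction they had at E14.5. Of the 20 other genes that rose, 14, 18 and 13 were above zero at those stages. Stmn4 was at 0.53, 0.17 and 0.47, Aacs at 0.57, 0.37 and 0.50, and Dusp8 at 0.40, 0.28 and 0.25. By contrast Ets1 was at -0.19, 0.022 and -0.12, and 9030025P20Rik at -0.081, 0.10 and 0.041.

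The 49 other genes that fell at E14.5 were below zero in 31 cases at E12.5, in 15 at E16.5 and in 42 of the 48 with a value at PND0. These shares went with transcript length, as they did over all genes. For the 36 over 4000 nt, 27, 8 and 36 were below zero at the 3 stages, where 61.5%, 40.4% and 69.9% of all genes of that length were. For the 13 of up to 4000 nt, 4 of 13, 7 of 13 and 6 of 12 were below zero, beside 41.6%, 55.3% and 38.9% of all such genes. The part of length in these shares was not tested. Pax5 was at 0.35, 0.92 and -1.38, and Lhx6 at 0.16, -0.07 and 0.21, so neither kept its direction. Ptch1 was at -0.22, -0.21 and -0.86 and Gli3 at -0.18, -0.037 and -0.15, below zero at each stage. Between the WT libraries of E12.5 and E16.5, 38 of these 49 genes declined in value (77.6%, against 51.1% of all genes), and 15 of the 20 other genes that rose in KO were higher at E16.5 (75%, against 48.9%). This WT step uses no E14.5 library.

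**Figure D5:**
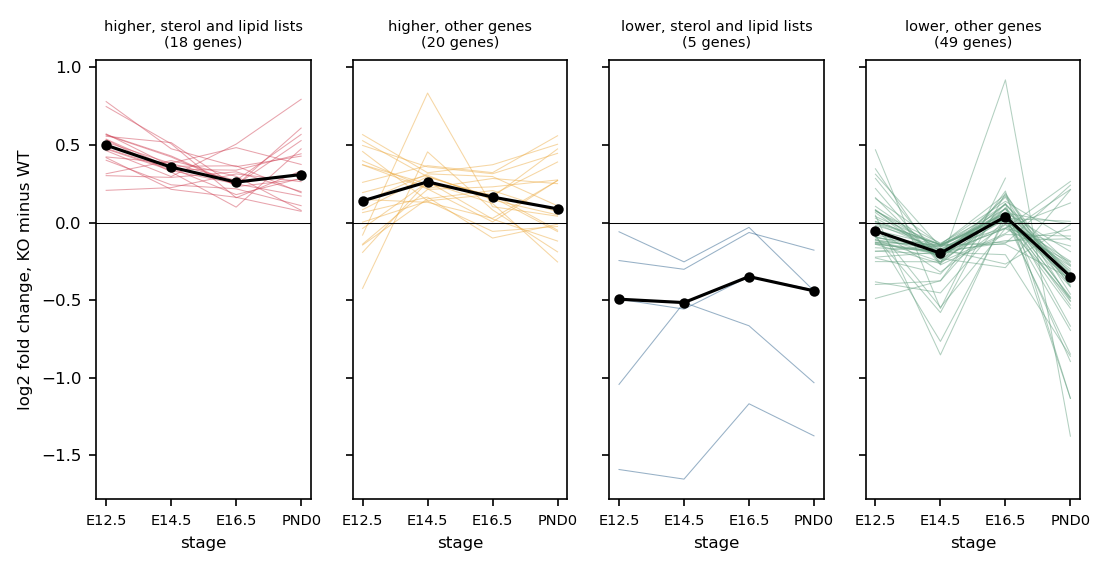
Log2 fold change of KO against WT at the 4 stages (horizontal axis) for the genes past the threshold at E14.5, in 4 panels by class, without Dhcr7 and Acte1. Thin lines are genes and the black line joins the class medians. The sterol and lipid panels stay on one side of zero at every stage, while the median of the lower, other genes is -0.35 at PND0, -0.20 at E14.5 and 0.038 at E16.5.

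No gene was shown to respond differently at E14.5 than at the other stages. In a fit of all 32 libraries, 0 of 19541 genes were past the threshold (0%) for the KO effect at E14.5 minus the mean effect of the other stages, by edgeR's quasi-likelihood test, by DESeq2 and by limma voom. At an unadjusted p under 0.05 there were 743 of the 19541 genes, 9 of them among the 94. The 94 were chosen on E14.5 values that also enter this contrast, so the 9 are no measure of a stage difference. These 9 were 9030025P20Rik, Mapkapk5, Ets1, Dhcr7, Abca1, Mvd, Abcg1, Snrpb and Ckb. Abca1 was less reduced at E14.5 than on average elsewhere by 0.39, and Abcg1 more reduced by 0.29, on the log2 scale (adjusted p = 1 for both by edgeR's quasi-likelihood test). The gene with the smallest p was Tmx3, a thiol oxidoreductase of the endoplasmic reticulum, at 0.26 on the log2 scale (SE 0.0681, adjusted p = 1 by the same edgeR test). The common coefficient of variation in this fit was 14.8%, above that of E14.5 alone.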

How the data were processed

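The libraries compared, the gene lists and the classes were chosen with earlier results of these data known. Per the submitters' processing notes, HISAT2, SAMtools, featureCounts and DESeq2 were used with build mm10; versions, annotation and strand setting are not given in the sources used here, so overlapping and antisense genes cannot be told apart. The authors deposited raw counts per gene symbol, 1 table per stage, for 55291 symbols. Positions and lengths come from GENCODE M21 (GRCm38): 53186 symbols matched by name, 370 by a RefSeq synonym, 152 fell on several loci and 1583 did not match.

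The 8 E14.5 libraries were fitted with edgeR 4.0.16 (R 4.3.3): TMM, filterByExpr (minimum count 10, minimum total 15), robust quasi-likelihood F test, Benjamini-Hochberg adjusted p under 0.05. SE values were derived as the absolute log2 fold change over the root of the F statistic. The stage difference was a contrast in a fit of 32 libraries. Libraries of a group were not copies (chi-square per degree of freedom 2.9 to 17.9 over 12 pairs, genes with at least 20 counts). The fit was tested on simulated data. Alternatives were RLE size factors, no filter, DESeq2 1.42.0, limma 3.58.1 voom with quality weights, each library left out, a replicate block, all 32 libraries, a sex-gene covariate and length offsets; leaving out KO 3 and KO 4 was added after seeing the data.

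Genes given by library were taken from Dhcr7, the 15 higher and 15 lower genes of smallest p (mean CPM 1 or more) and list members past the threshold; for a list with none, the member of smallest p is named. Other called genes are named by fold change. Some genes that entered the fits, counts and medians are not reported here. Of the 34 functional lists, 8 of them on sterols and lipids, and the 13 composition lists, the text gives counts and medians. Aacs, Dusp8, Ptgds and 9030025P20Rik by library, and Stard4, Apoe, Elovl5, Elovl6, Gas1 and the 6 synthesis enzymes not past the threshold, were chosen after their values were seen.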

Additional observations from a re-analysis of the deposited data

Results flagged for a closer look

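Within the 4 libraries of a group, 246 groups of values (123 genes in WT and in KO) were examined for a library far from the others by Dixon's ratio of the gap to the range, at its critical value for 4 samples. The rule marks about 5% of groups by chance, and it marked 11. Among the sterol genes, Cyp51 was low in WT 1 (155 CPM, with 164 CPM the next lowest), Insig1 low in KO 2 (101 CPM) and Idi1 high in KO 2 (63.0 CPM). Ggps1 was high in WT 3 (63.7 CPM). Among the other called genes, Gli3 was low in KO 2 (69.9 CPM), Ston2, an endocytic adaptor, low in KO 2 (32.6 CPM), Snrpb low in KO 3 (113 CPM), Ep400 low in WT 4 (271 CPM) and Dpysl2 high in WT 4 (318 CPM). Of genes not past the threshold, Foxp2 was high in KO 3 (90.4 CPM) and P2ry12, of microglia, low in KO 1 (1.75 CPM).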

How the results depend on the processing

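Against 94 genes past the threshold, the count was 94 with RLE size factors, 146 without the filter, 122 with DESeq2, 120 with limma voom, 105 with the sex-gene covariate, 114 with length offsets and 72 (57 of them shared) without KO 3 and KO 4, and it ran from 52 to 155 over the fits that left out 1 library. With all 32 libraries in 1 fit only 4 passed (Dhcr7, Abcg1, Acte1 and Srebf1), where the common coefficient of variation was 14.8% in place of 6.254%. The share of calls that were higher in KO was 41.5%, and 55.8% without WT 4, 56.1% without KO 1, 53.6% without KO 2, 53.7% without KO 4 and 25% with all 32 libraries; the cause was not tested. None of the 94 genes changed direction under any alternative. In every fit that left out 1 library, 17 of the 18 higher and 5 of 5 lower sterol and lipid genes kept their call, but 9 of 21 other higher and 14 of 50 other lower genes. With the replicate number as a block 131 genes passed, including all 94; same-numbered libraries correlated at -0.182, -0.137, 0.0354 and 0.109, so the numbers were not taken as pairs, and 1 of the 4 numbers was its own best match. The stage difference had 0 genes past the threshold in all its alternatives. With 4 libraries a group, differences of low genes had wide errors (Olig3, SE 0.138).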
